A study of Mus musculus with 4 samples.

Results

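Galectins, S100 proteins, annexin A2 and vimentin form a loose group of proteins that link calcium, sugars, membranes and the cytoskeleton. The 9 genes Lgals1, Lgals3, Lgals9, S100a4, S100a6, S100a10, S100a11, Anxa2 and Vim were followed here, out of 21027 genes counted in both count tables. They were named by symbol and had been chosen with earlier measured values of the same tables in view. Their levels across cell types are therefore given as a description. The donors were Cxxc1flox/floxRorccre mice (labelled 6-8 weeks-old), whose small-intestinal lamina propria cells had been sorted as group 3 innate lymphoid cells (ILC3s). All cells belonged to this 1 genotype, in 2 replicates, and no Cxxc1-sufficient cells were analysed here. As background, this cre is also active in developing T cells of the thymus, so deletion driven by it is not limited to ILC3s. Whether the replicates were separate animals is not given in the labels. The p-values rest on how far a difference between groups varied over these 2 replicates, which may be technical. Most of the weight in that spread was borrowed from all genes tested.

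Galectins are lectins that bind beta-galactoside sugars on glycoproteins. Galectin-1 is a dimer, galectin-3 has a single lectin domain with a self-associating tail, and galectin-9 joins a pair of lectin domains in tandem. S100 proteins are small EF-hand proteins, most of which expose a binding surface when they take up calcium. S100A10 differs in that it no longer binds calcium and instead forms a complex with annexin A2, a protein that binds membranes in a calcium-dependent way. Vimentin builds the intermediate filaments of mesenchymal cells and of many leukocytes. In the gut, stromal cells, macrophages and activated lymphocytes are known to use these genes to different degrees.

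On the GRCm38 build (GENCODE vM21) all 9 genes are protein-coding. S100a11 (chr3:93520488-93526287, plus strand) and S100a10 (chr3:93555080-93564643, plus strand) are neighbours 28792 bp apart with no protein-coding gene between them. S100a4 (chr3:90603771-90606045) and S100a6 (chr3:90612882-90624181) lie on the same chromosome and strand, 6836 bp apart with 1 protein-coding gene between them. Lgals1 (chr15:78926725-78930465), Lgals3 (chr14:47367751-47386160), Anxa2 (chr9:69453620-69491795) and Vim (chr2:13573927-13582826) are on the plus strand and Lgals9 (chr11:78962974-78984946) is on the minus strand. The annotation places a protein-coding gene model, Gm42674, over S100a4 on the same strand, and the microRNA gene Mir3109 and the antisense gene Gm16144 within Anxa2. None of them has a column in the count tables, and how their reads were assigned is not given in the sources used here.

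Cxxc1 encodes a CXXC zinc-finger protein that is known to bind unmethylated CpG and to belong to the SET1 complexes that methylate histone H3. For that reason the promoters of the genes with the clearest difference between ILC3 subsets are shown with each CpG in capitals. Each runs from 250 bases before to 50 bases after the gene start, from RefSeq on GRCm38.p6, plus strand. The RefSeq start lies 6109 bases inside the GENCODE gene for Lgals3 and 384 bases inside it for Vim, so the annotations place these starts differently. The windows are chr14:47373610-47373909 for Lgals3, chr3:90603520-90603819 for S100a4 and chr2:13574061-13574360 for Vim.
Lgals3: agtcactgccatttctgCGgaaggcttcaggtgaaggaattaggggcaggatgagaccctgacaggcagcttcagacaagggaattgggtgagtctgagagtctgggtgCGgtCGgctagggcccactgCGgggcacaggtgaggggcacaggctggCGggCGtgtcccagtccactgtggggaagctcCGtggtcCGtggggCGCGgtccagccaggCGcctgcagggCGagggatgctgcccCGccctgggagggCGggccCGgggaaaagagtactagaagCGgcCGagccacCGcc
S100a4: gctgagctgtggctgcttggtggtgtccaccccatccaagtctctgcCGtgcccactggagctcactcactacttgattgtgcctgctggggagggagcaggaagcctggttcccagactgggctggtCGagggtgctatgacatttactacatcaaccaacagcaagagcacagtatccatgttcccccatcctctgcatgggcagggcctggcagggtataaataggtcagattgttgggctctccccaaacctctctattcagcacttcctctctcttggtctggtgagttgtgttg
Vim: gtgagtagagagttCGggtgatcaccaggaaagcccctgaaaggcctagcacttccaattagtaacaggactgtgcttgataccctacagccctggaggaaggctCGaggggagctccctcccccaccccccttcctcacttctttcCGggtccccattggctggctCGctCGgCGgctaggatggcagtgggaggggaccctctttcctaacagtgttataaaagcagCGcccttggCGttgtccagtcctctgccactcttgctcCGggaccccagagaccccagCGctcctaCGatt

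The Lgals3 window held 18 CpG, the Vim window 11 and the S100a4 window 2, against a median of 7 over 32851 mouse promoters of the same length. Fewer CpG than in the Lgals3 window were found in 70.3% of those promoters, and fewer than in the S100a4 window in 14.1%. The table held promoters of 7 of the 9 genes (not Lgals1 and S100a10), and the other windows held 15 (S100a11), 13 (Anxa2), 6 (S100a6) and 4 (Lgals9) CpG. The letters TATAAA, searched on both strands, occurred in the Vim, S100a4 and Anxa2 windows and in 13.6% of all promoters. The S100a11 and Anxa2 windows held TGANTCA, the letters of the AP-1 motif, found in 7.81% of all promoters. Both also held GGGCGG, a GC box, as did the Lgals3 window (35.7% of all promoters). These are letter matches only, and no binding or methylation was measured.

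The tagged cells numbered 2077 in replicate 1 and 4532 in replicate 2, with 11939862 and 12141164 UMIs (unique molecular identifiers, each standing for 1 captured molecule). Filters left 1906 and 4179 cells, whose median depth was 4200 and 2364 UMIs. Although all cells had been sorted as ILC3s, ILC3-like cells made up 30.1% and 39.5% of them. T cell-like cells were 14.1% and 42.8%, stromal cell-like cells 17.3% and 6.15%, and plasma cell-like cells 19.7% and 1.68%. The doublet caller removed 2.01% and 0.143% of cells, so doublets must be taken as present in replicate 2. The captures shared 7 cell numbers. Free RNA was present: Igkc, an immunoglobulin gene, stood at a CPM level, its share of the summed UMIs in parts per 1000000, of 8456 and 338 among ILC3-like cells. Cxxc1 transcripts stood at 42.5 and 47.7 CPM among ILC3-like cells, against 90 and 78.2 CPM among T cell-like ones, and a gene count does not show whether the floxed exons were present.

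Across 6 cell classes, the 9 genes fell into different patterns, and no class was highest for all of them. The ILC2-like class among them consisted mostly of cells with CD3 or T cell receptor transcripts, as set out below. Lgals1, Lgals9, S100a6, Anxa2 and Vim were highest in stromal cell-like cells in both replicates. Exceptions came with other settings: with cells thinned to 1000 UMIs, Lgals9 was seen in 9.88% of stromal and 10.9% of ILC3-like cells of replicate 2, and at the finer clustering Vim was highest in macrophage or monocyte-like cells of replicate 1. Lgals3 was highest in macrophage or monocyte-like cells. For S100a4, S100a10 and S100a11 the highest class differed between the replicates. Classes too small for this order could lie higher. Epithelial cell-like cells (8 and 4) had Lgals9 at 929.6 and 364 CPM and Anxa2 at 454 and 512 CPM, above the stromal values. Their Lgals1 and Vim were below the stromal values in both replicates, and their S100a6 in replicate 1 only. The level is the CPM of the summed UMIs of a class, and neighbouring classes are called apart only where both replicates of one lay above both replicates of the other.

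**Figure D1:**
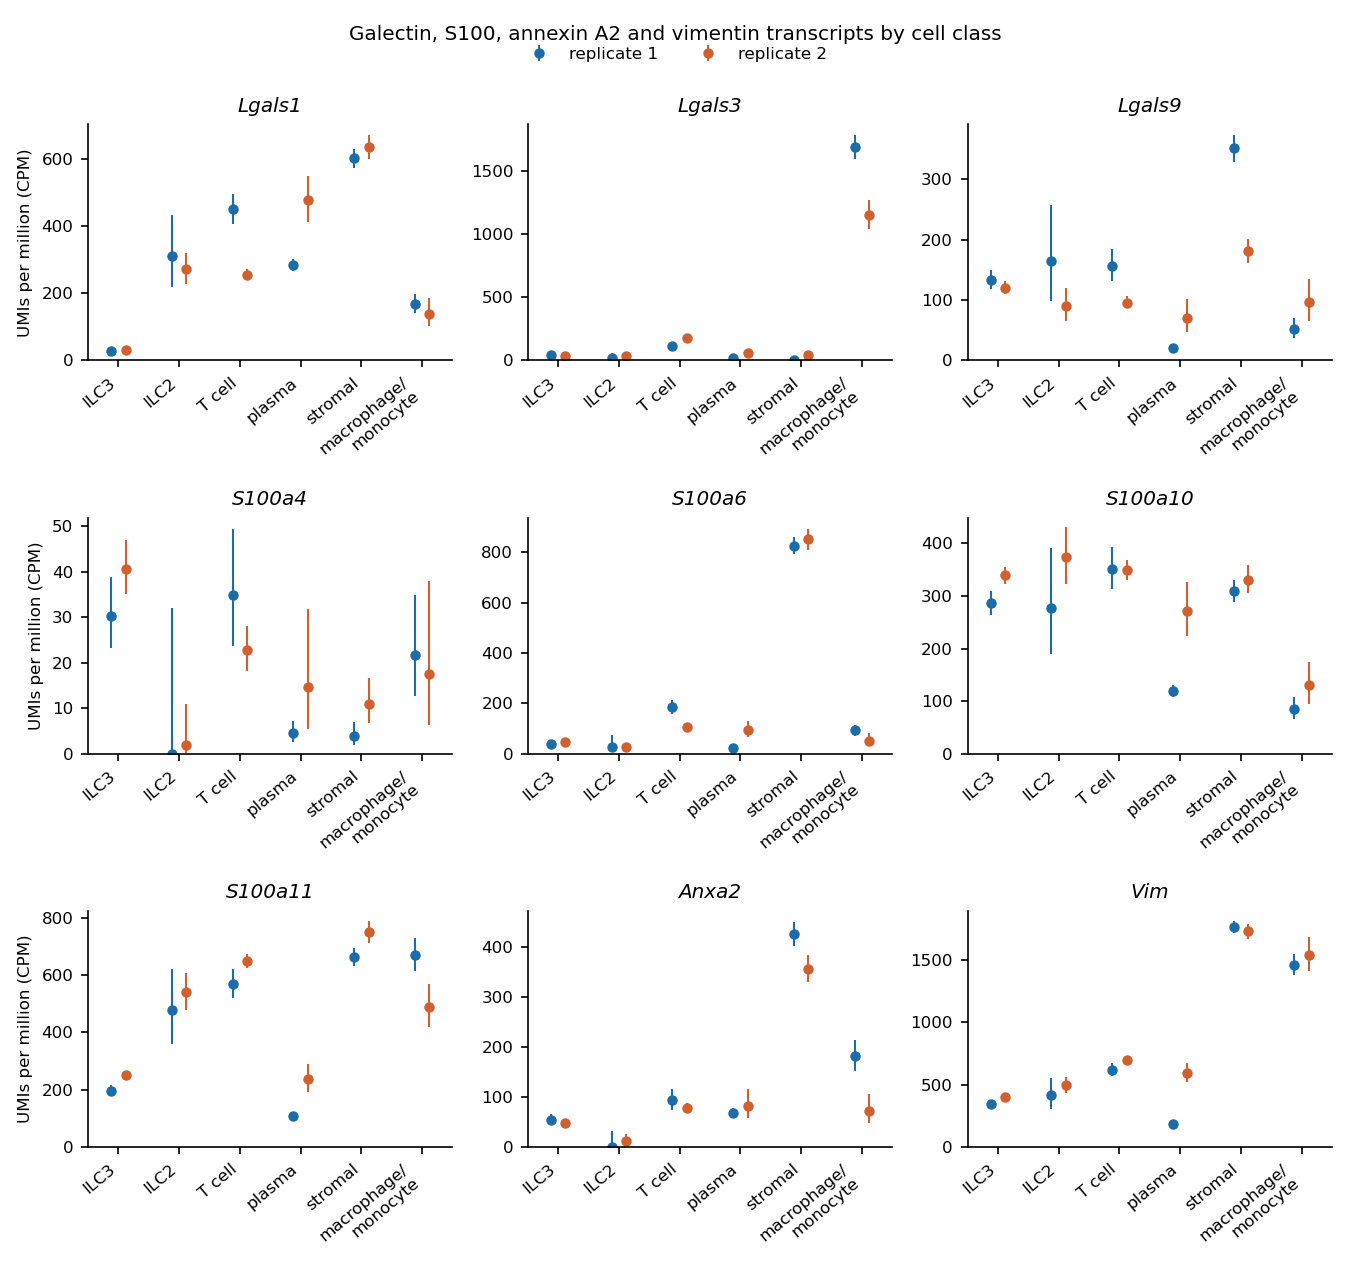
Level of each gene (CPM, linear axis from 0) in 6 cell classes. Each point is the summed UMIs of 1 replicate and bars are exact Poisson 95% intervals, which cover counting error only; Lgals3 stands apart in macrophage or monocyte-like cells at 1685 and 1152 CPM.

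Galectin-1, which can induce death of activated T cells in culture, was lowest in ILC3-like cells. Lgals1 stood at 27.4 and 32.6 CPM in the ILC3-like class of replicates 1 and 2, and at 602 and 635 CPM in stromal cell-like cells. The stromal values were apart from the next class, and the ILC3 values were apart from every other class. T cell-like cells (449.9 and 255 CPM), plasma cell-like cells (283 and 477 CPM) and ILC2-like cells (312 and 272 CPM) overlapped one another. Macrophage or monocyte-like cells lay between these and the ILC3-like cells, at 168 and 139.6 CPM. In ILC3-like cells a UMI of Lgals1 was seen in 7.85% and 6.36% of cells, against 93.6% and 91.1% of the more deeply sequenced stromal cells. With every cell thinned to 1000 UMIs the shares were 1.57% and 2.69% against 42.6% and 42.7%. Free RNA at the share of Igkc found in ILC3-like cells corresponded to 10.1 and 1.09 CPM of Lgals1, and at the share of Col1a1, a collagen gene, to 5 and 3.09 CPM.

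Galectin-3, long used as a macrophage antigen under the name Mac-2, had the narrowest distribution. Lgals3 reached 1685 and 1152 CPM in macrophage or monocyte-like cells, apart from T cell-like cells with 115 and 174 CPM. The T cell values were in turn apart from the remaining classes, which overlapped. ILC3-like cells had 43 and 38.3 CPM. Lyz2, a lysozyme gene of myeloid cells, was present in ILC3-like cells at 0.475% and 0.155% of its macrophage level, which corresponds to 8 and 1.79 CPM of Lgals3.

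The macrophage or monocyte-like class was 1 cluster of 82 and 67 cells in which Xcr1, a gene of conventional dendritic cells, was among the leading genes. At a finer clustering with a macrophage or monocyte-like and a larger dendritic cell-like class, Lgals3 was high in both. It was at 1154 and 1083 CPM in the former (38 and 61 cells) and at 1661 and 765 CPM in the latter (63 and 25 cells). S100a10, in contrast, was at 22.6 CPM in the dendritic cell-like class of replicate 1 and at 164 CPM in that of replicate 2. A separate cluster of 19 cells in each replicate, led by Ccl22, Ccl17 and Ccr7, genes of migratory dendritic cells, was too small for the comparison. In it Anxa2 stood at 939 and 839 CPM and S100a11 at 1091 and 1224 CPM. These values were above those of the 6 classes in both replicates for both genes.

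Galectin-9, a tandem-repeat galectin reported to bind the receptor TIM-3, varied least among the galectins. Lgals9 was at 351 and 181 CPM in stromal cell-like cells, which were apart from the next class, although the lower stromal value lay close to the 165 CPM of ILC2-like cells in replicate 1. ILC2-like (165 and 90.1 CPM), ILC3-like (133 and 120.1 CPM), T cell-like (156 and 95.7 CPM) and macrophage or monocyte-like cells (51.3 and 96 CPM) formed an overlapping order. Plasma cell-like cells were lowest on average, at 20.4 and 70.9 CPM.

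The 4 S100 genes did not share a pattern, although they lie in pairs on chromosome 3. S100A4, also called fibroblast-specific protein 1, binds non-muscle myosin. S100a4 was low throughout, with 30.3 and 40.7 CPM among ILC3-like and 34.9 and 22.8 CPM among T cell-like cells, which overlapped. Despite the name, stromal cell-like cells had only 3.89 and 10.9 CPM, from 11 and 21 UMIs. In ILC2-like cells 0 UMIs were counted in replicate 1, where 3 counts would be 26 CPM, and 1 UMI in replicate 2.

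Calcyclin, the product of S100a6, is a partner of the ubiquitin-ligase adaptor CacyBP. S100a6 was at 826 and 852 CPM in stromal cell-like cells, far apart from T cell-like cells with 184 and 105 CPM. ILC3-like cells had 39.6 and 46.8 CPM and ILC2-like cells 26 and 25.5 CPM, so T cell-like, ILC3-like and ILC2-like cells were apart by the replicate rule. The ILC2-like values rest on only 3 and 13 UMIs. The counting interval of replicate 1 (5.36 to 76 CPM) covers the ILC3-like values. S100a10, the annexin A2 partner, did not follow Anxa2: it stood at 352 and 349 CPM in T cell-like, 277 and 374 in ILC2-like, 309 and 331 in stromal cell-like and 286 and 339 CPM in ILC3-like cells, which overlapped. Plasma cell-like and macrophage or monocyte-like cells were apart below them. Over the UMIs outside immunoglobulin genes, however, plasma cell-like cells had 214 and 381 CPM of S100a10 and were not apart from them. S100a11, whose product binds annexin A1, was at 662 and 750.3 CPM in stromal cell-like cells against 197 and 251 CPM among ILC3-like ones.

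Annexin A2 gathers phospholipids and actin at membranes. Anxa2 was at 426 and 357 CPM in stromal cell-like cells against 54.2 and 49 CPM among ILC3-like ones. ILC2-like cells had the lowest values, 0 UMIs in replicate 1 and 6 UMIs (11.8 CPM) in replicate 2, while S100a10 was as high there as in T cells. Vim was at 1762 and 1727 CPM in stromal cell-like, 1460.1 and 1542 CPM in macrophage or monocyte-like and 619 and 694 CPM for T cells, each apart from the next. ILC3-like cells were the lowest on average, at 340.5 and 400.4 CPM, and overlapped plasma cell-like cells at 182 and 591 CPM. Among plasma cell-like cells with at least 5% of UMIs from immunoglobulin genes Vim was at 141 and 121 CPM, below the ILC3-like cells in both replicates.

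Several class names carry limits that bear on these values. The ILC2-like cluster was led by Il13 and Il5 but also held Cd3e, a T cell receptor component, at 711 and 864 CPM. ILC3-like cells had 10.3 and 29.8 CPM of it. The cluster raised 8 of 10 ILC2 genes and 10 of 13 T cell genes. At least 2 UMIs of CD3 or T cell receptor genes were held by 34 of its 36 cells in replicate 1. In replicate 2 the same held for at least 182 of 193. Most of these cells are thus better read as T cells with Il13 and Il5 transcripts, and ILC2-like is kept only as a cluster name. In plasma cell-like cells immunoglobulin genes took 44.5% and 28.9% of the UMIs, and the CPM of other genes are shares of the same total. Over the UMIs outside those genes, Lgals1 was at 510.3 and 670 CPM and Vim at 328 and 831 CPM in plasma cell-like cells. In replicate 2 only 34 of the 70 cells had at least 5% of UMIs from immunoglobulin constant genes, and the class held Cd3e at 315 CPM, against 8.03 CPM in replicate 1. In the 359 and 34 cells above that share, a limit set after the values were seen, Lgals1 was at 280 and 224 CPM, Vim at 141 and 121 CPM, S100a6 at 22.1 and 13.4 CPM and Lgals3 at 15.8 and 17.9 CPM. The plasma values of replicate 2 given above are therefore those of a mixed class. The replicates used different clusters for stromal, T and ILC3-like cells, so that differences between replicates and between subtypes within a class cannot be told apart.

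**Figure D2:**
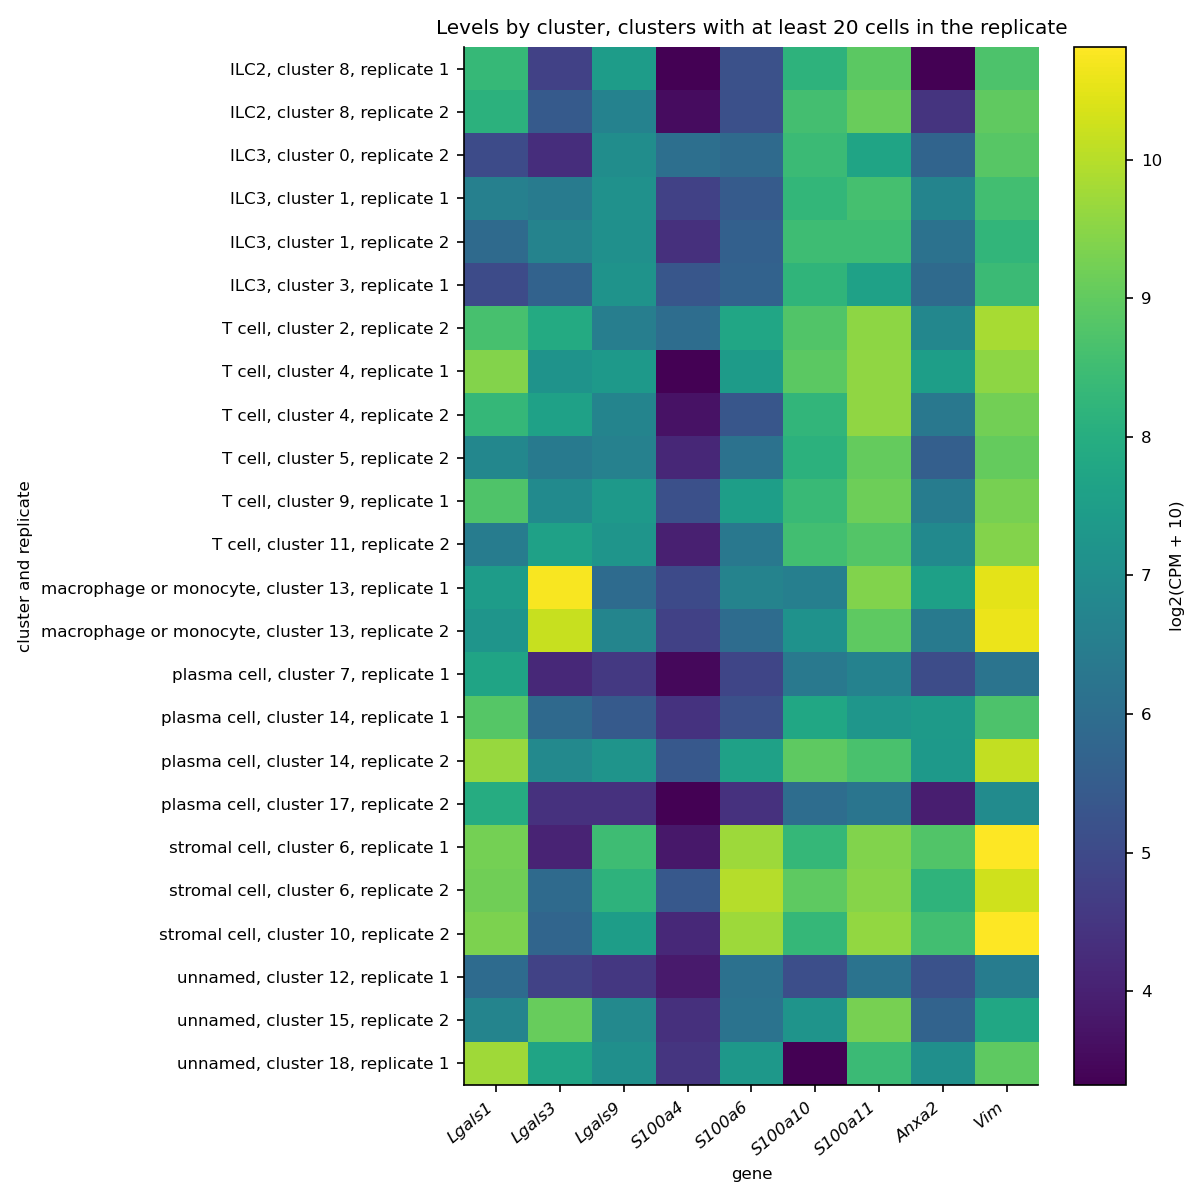
Heat map of log2(CPM + 10) for the 9 genes (columns) in each of 24 combinations of cluster and replicate with at least 20 cells (rows). S100a4 separates T cell cluster 2 of replicate 2 (53.5 CPM) from cluster 4 of the same replicate (2.89 CPM), and Lgals3 separates ILC3 cluster 1 (91.8 CPM) from cluster 0 (9.69 CPM).

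Within the ILC3-like cells, the genes differed more between subsets than their class values show. In replicate 2, cluster 0, with Ccr6 and Cxcr5 among its leading genes, and cluster 1, led by Gzmc, Xcl1 and Ncr1, differed in Lgals3 (9.69 against 91.8 CPM) and S100a4 (56.8 against 10.6 CPM). S100a11 was at 198 and 348 CPM and Vim at 458 and 293 CPM in the same clusters. Anxa2, Lgals9 and S100a10 lay closer together, at 42.8 and 60.5 CPM, 117 and 126 CPM, and 333 and 349 CPM. The 9 genes had been left out of the clustering. Clusters are defined by the data, so these values are a description.

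The subsets were also divided by marker gene. Ncr1 encodes the activating receptor NKp46 of the NCR+ subset, and Ccr6 the chemokine receptor of the lymphoid tissue inducer-like subset. Cells were Ncr1-gated (103 and 215) when Ncr1 alone was detected and Ccr6-gated (49 and 155) when Ccr6 alone was, and cells with neither (421 and 1278) were kept as another class. This division had been reported earlier for these tables with one of the genes among its largest differences, so fold changes are given with a standard error (SE) and no p-value.

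**Figure D3:**
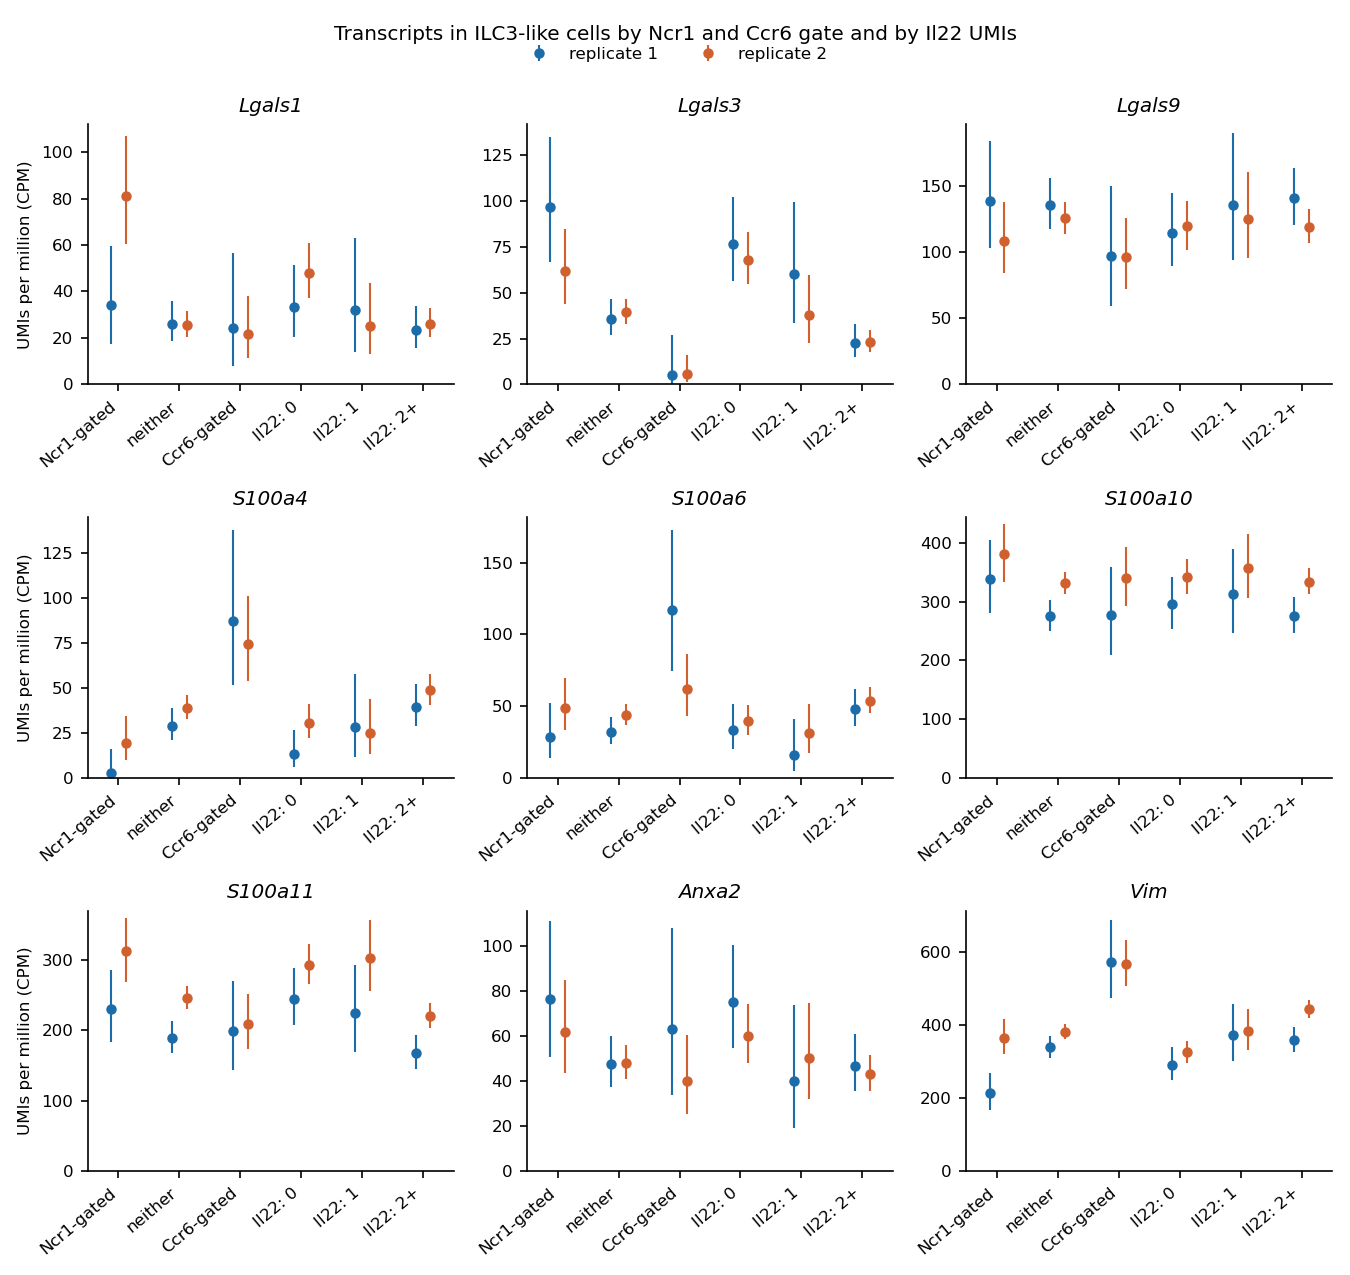
Level of each gene (CPM, linear axis from 0) in ILC3-like cells, by Ncr1 and Ccr6 gate (3 positions at left) and by number of Il22 UMIs (3 positions at right). Points are replicates and bars exact Poisson 95% intervals for counting error; Lgals3 falls and S100a4 rises from the Ncr1-gated to the Ccr6-gated cells in both replicates.

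Lgals3 was at 96.5 and 61.7 CPM in Ncr1-gated cells, from 34 and 38 UMIs. In Ccr6-gated cells it was at 4.86 and 5.46 CPM, from 1 and 3 UMIs. The ratio was 19.9 in replicate 1 (95% counting interval 3.33 to 807) and 11.3 in replicate 2 (3.59 to 57.2). The groups did not overlap, and cells with neither marker lay between them at 35.6 and 39.5 CPM. The share of Lyz2 found in Ccr6-gated cells corresponded to 9.36 and 0.576 CPM of Lgals3, and that in Ncr1-gated cells to 16.4 and 2.06 CPM; the part of free RNA in these levels was not tested. The fitted log2 fold change was 3.79 with an SE of 0.52, which depends on the prior count at so few UMIs.

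S100a4 ran the other way. It was at 2.84 and 19.5 CPM in Ncr1-gated cells (1 and 12 UMIs) and at 87.4 and 74.6 CPM in Ccr6-gated cells (18 and 41 UMIs). Ccr6-gated cells were higher 30.8-fold in replicate 1 (4.86 to 1284) and 3.83-fold in replicate 2 (1.97 to 8), so the size of the difference was not fixed by these counts. The fitted log2 fold change was -2.53 with an SE of 0.44.

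Vim was the most abundantly counted of the genes that differed. It was at 213 and 365 CPM in Ncr1-gated cells and at 573 and 566 CPM in Ccr6-gated cells, without overlap, with cells of neither gate between at 338 and 381 CPM. The log2 fold change was -0.91 with an SE of 0.16. S100a6 was lower in Ncr1-gated cells as well, at 28.4 and 48.7 CPM against 117 and 61.9 CPM, with a log2 fold change of -0.93 and an SE of 0.37. The replicates gave different sizes for it, 4.11-fold and 1.27-fold, and the interval of the second (0.754 to 2.15) included no difference.

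Lgals1 was at 34 and 81.2 CPM in Ncr1-gated cells and at 24.3 and 21.8 CPM in Ccr6-gated cells. The log2 fold change was 1.50 with an SE of 0.43, and 0.38 and 1.87 within single replicates. It was 0.28 when ILC3-like cluster 1 was left out, in which 5 of the ILC1 or natural killer cell genes were raised. Some genes of that list also mark the NCR+ subset. Cluster 3, which held 92% of the ILC3-like cells of replicate 1 and raised 3 genes of the list, stayed in. Lgals9, S100a10, S100a11 and Anxa2 had log2 fold changes between 0.21 and 0.51. Of the 9 genes, 2 were higher and 2 lower at an adjusted p under 0.05 in the fit over all genes, where 8.61% of 6934 genes were called (4.12% higher and 4.49% lower). Because the contrast may have chosen the genes, nothing is read from that count.

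Related genes were also measured between the gated ILC3s. Their lists were likewise chosen with earlier results of these data known. Calls at an adjusted p under 0.05 by edgeR are therefore a description here. Of 3 other galectins and galectin-binding genes tested, 2 were called lower in Ncr1-gated cells. Lgals3bp, a secreted ligand of galectin-3, differed by -0.82 on the log2 scale (SE 0.16). Mgat5, the enzyme that makes the branched N-glycans galectins bind, had -0.71 (SE 0.17). Both thus differed in the direction opposite to Lgals3. Anxa5 was lower, at -0.96 (SE 0.21), the only one called of 6 other annexins tested, and the nuclear lamin gene Lmna was lower, at -0.87 (SE 0.27), of 3 filament genes. DESeq2 called 0 in both of these lists, 1 of the galectin-related genes and 1 of the partners and receptors. Among 8 partners and receptors tested, Ptprc, which encodes the galectin-1 ligand CD45, and the integrin gene Itgb1 were higher, at 0.68 (SE 0.11) and 0.69 (SE 0.20). Neither of 2 other S100 genes tested was called by edgeR (0 also at an unadjusted p under 0.05, and 0 by DESeq2).

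Marker lists of other cells were summed in the same gates. The ILC1 or natural killer cell list shares Klrb1c, Tbx21 and Xcl1 with the list of the NCR+ subset. A higher sum of it in Ncr1-gated cells is therefore not specific to other cells. The 11 genes of the ILC1 or natural killer cell list summed to 2778 and 1698 CPM in Ncr1-gated cells and to 126 and 102 CPM in Ccr6-gated cells, with Eomes, Klra4 and Klra8 at 0 UMIs in the Ncr1-gated cells of both replicates. The 12 macrophage or monocyte genes summed to 48.2 and 21.1 CPM against 19.4 and 21.8 CPM, with C1qa, Adgre1 and Fcgr1 at 0 in both Ncr1-gated sums. The 13 T cell genes summed to 536 and 617 CPM against 325 and 331 CPM. The part of these cells in the differences was not tested. With every cell left out that had a T cell receptor or CD3 UMI, the log2 fold changes of Lgals3, S100a4 and Vim were 4.20, -1.85 and -0.92, and without cluster 1 they were 4.14, -2.31 and -0.94.

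Interleukin-22 is the main effector cytokine of ILC3s and acts on the epithelium. ILC3-like cells with at least 2 Il22 UMIs (312 and 891) were compared with those with none (190 and 567). The Il22-gated cells were also deeper, with a median of 3639.5 and 2940 UMIs against 2996 and 2351. The gate does not use the 9 genes, but it follows the Ncr1 and Ccr6 division in part. That division may have chosen the genes, so the p-values below are not an independent test of them. Il22-gated cells had less Lgals3 and S100a11 and more S100a4 and Vim. The test was edgeR's quasi-likelihood test with Benjamini-Hochberg adjustment over all 8126 genes tested. Of the 9 genes, 2 were called higher and 2 lower, where 5.61% of all genes were called (2.86% higher and 2.76% lower). The median log2 fold change was -0.06 over the 9 genes and -0.01 over all genes tested.

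Lgals3 was at 22.5 and 23.2 CPM in Il22-gated cells and at 76.6 and 67.7 CPM in Il22-negative cells, with no overlap. Cells with exactly 1 Il22 UMI lay between, at 60.1 and 37.6 CPM. The log2 fold change was -1.62 (SE 0.21, adjusted p = 2.9e-05 by edgeR), lower in 2 of 2 replicates. S100a11 was at 168 and 220 CPM against 245 and 292 CPM, with no overlap between the groups. Its log2 fold change was -0.46 (SE 0.11, adjusted p = 0.00862 by edgeR).

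Vim was at 358 and 442 CPM in Il22-gated cells and at 291 and 325 CPM in Il22-negative cells, a log2 difference of 0.38 (SE 0.10, adjusted p = 0.0197 by edgeR). The groups did not overlap. S100a4 was at 39.2 and 48.6 CPM against 13.3 and 30.7 CPM, a log2 difference of 0.87 (SE 0.25, adjusted p = 0.0446 by edgeR), likewise without overlap. Of the genes not called, Lgals1 was at 23.4 and 26.2 CPM against 33.3 and 47.8 CPM (adjusted p = 0.071 by edgeR). Anxa2 was at 46.8 and 43.1 CPM against 75 and 59.9 CPM (adjusted p = 0.112 by edgeR). S100a6, S100a10 and Lgals9 had log2 fold changes of 0.47, -0.06 and 0.10.

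The Il22 gate was not independent of the subsets. Ncr1 stood at 58.5 and 43.8 CPM in Il22-gated and at 122 and 92 CPM in Il22-negative cells, and Ccr6 at 45.1 and 57.1 against 8.33 and 27.1 CPM. The 11 ILC1 or natural killer cell genes, some of which also mark the NCR+ subset, summed to 550.3 and 457 CPM against 2533 and 1764 CPM. Without ILC3-like cluster 1 none of the 9 genes was called by edgeR (2 had an unadjusted p under 0.05), and only 9 genes were called among 6631; Lgals3 then differed by -1.55 on the log2 scale (SE 0.45, adjusted p = 0.315 by edgeR), close to the -1.62 with the cluster. DESeq2 called 1 of the 9 genes, Lgals3.

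Among related genes in the same comparison, Lgals3bp and Mgat5 were higher in Il22-gated cells, 2 of 3 in their list by edgeR and 0 of 3 by DESeq2. Their log2 fold changes were 0.66 (SE 0.11) and 0.57 (SE 0.12), again opposite in sign to Lgals3. Anxa5 was higher at 0.75 (SE 0.13), of 6 other annexins tested, where DESeq2 called 0. Of 9 partners and receptors, 4 were lower by edgeR and 1 was called by DESeq2. The largest fold change was that of Plat, the tissue plasminogen activator gene, at -2.60 (SE 0.77). It rests on few UMIs, as Plat was at only 2.93 and 5.44 CPM among ILC3-like cells. Stromal cell-like cells had 124 and 132 CPM of Plat, and the part of free RNA was not tested. Itgb1 was at -0.53 (SE 0.15) and Ptprc at -0.48 (SE 0.08). None of 4 filament genes and 2 other S100 genes was called by edgeR (1 and 0 at an unadjusted p under 0.05, and 0 and 0 by DESeq2).

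T cells were taken as cells with at least 2 UMIs of CD3 or T cell receptor genes outside the ILC3-like, plasma cell-like, stromal, endothelial, epithelial and myeloid classes, which gave 307 and 1960 cells. The rule did not leave out the ILC2-like cluster, which supplied 34 of the 307 cells of replicate 1 and at least 182 of the 1960 of replicate 2. Cd8-gated cells numbered only 10 in replicate 1 and 198 in replicate 2, and Cd4-gated cells 226 and 1205. Lgals1 and S100a11 were lower in Cd8-gated cells, and no gene of the 9 was called higher, where 4.62% of 6842 genes were called (1.49% higher and 3.13% lower). The median log2 fold change was -0.27 over the 9 genes and -0.03 over all genes tested.

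Lgals1 was at 395 and 109.5 CPM in Cd8-gated cells and at 413 and 310 CPM in Cd4-gated cells. The values overlapped between replicates, and the difference came from replicate 2. The log2 fold change was -1.15 (SE 0.25, adjusted p = 9.3e-04 by edgeR), and within single replicates it was -0.23 and -1.51. S100a11 was at 461 and 429.7 CPM against 582 and 708 CPM, without overlap, a log2 difference of -0.68 (SE 0.19, adjusted p = 0.0159 by edgeR). Neither was called by DESeq2 or without the replicate block, while both were called without the ILC2-like cells (-1.12 and -0.68).

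The other 7 genes were not called between Cd8-gated and Cd4-gated cells. Lgals3 was at 165 and 116 CPM against 105 and 181 CPM, in opposite order in the replicates. S100a4 was at 0 and 8.43 CPM against 24.9 and 21.8 CPM, and the 0 stands for 10 cells with 30343 UMIs. S100a6, S100a10, Lgals9, Anxa2 and Vim had log2 fold changes between -0.27 and 0.11; that of Anxa2 was -0.04 without the ILC2-like cells. Of 20 related genes tested, 1 was called, Cd44, the hyaluronan receptor of activated T cells, which was lower at -1.22 (SE 0.24, adjusted p = 1.5e-04 by edgeR), while DESeq2 called 0 of the 20. The 11 ILC1 or natural killer cell genes, several of which cytotoxic T cells share, summed to 5767 and 12568 CPM in Cd8-gated and 3087 and 1629 CPM in Cd4-gated cells.

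**Figure D4:**
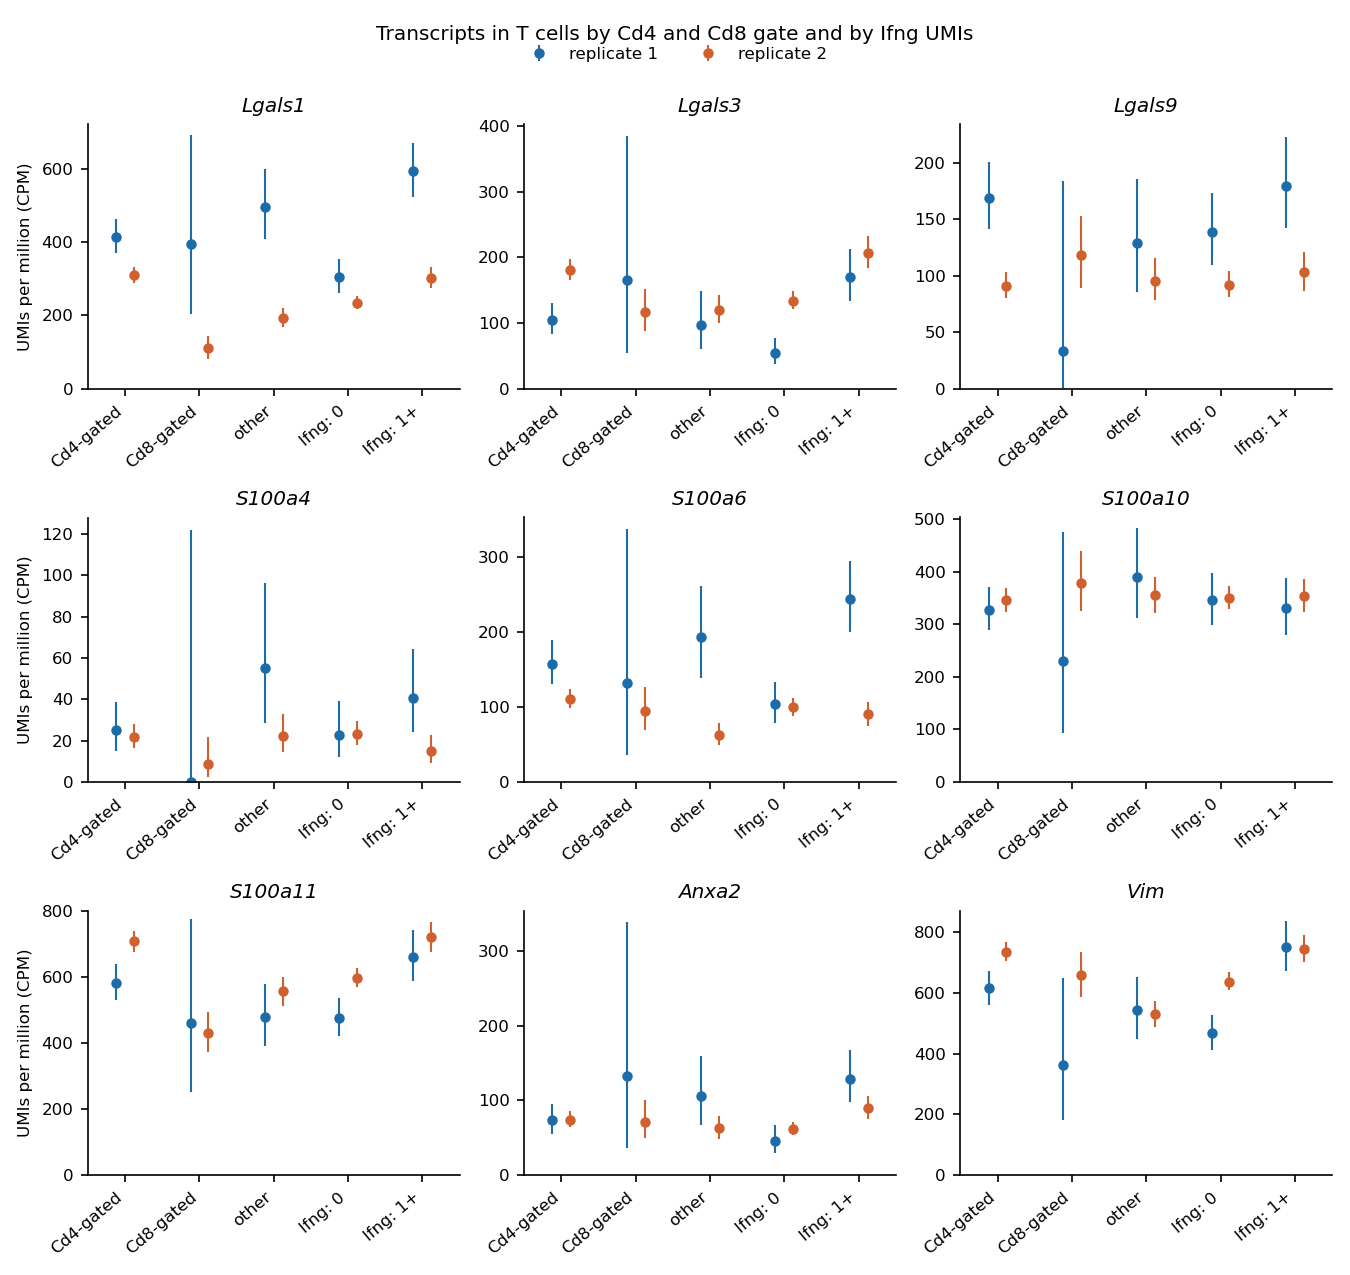
Level of each gene (CPM, linear axis from 0) in T cells by Cd4 and Cd8 gate (3 positions at left) and by Ifng UMIs (2 positions at right). Points are replicates and bars exact Poisson 95% intervals for counting error; Lgals3 is higher in Ifng-gated than in Ifng-negative cells of each replicate, at 169.7 against 54.4 and at 207 against 134 CPM.

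Interferon-gamma marks T cells in a type 1 effector state. T cells with at least 1 Ifng UMI (115 and 642) were compared with those with none (192 and 1318). Lgals3 and Lgals1 were higher in the Ifng-gated cells, 2 of the 9 genes called, both higher, where 1.82% of 7649 genes were called (0.863% higher and 0.954% lower). The median log2 fold change over the 9 genes was 0.40, beside a median of -0.00 over all genes tested.

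Lgals3 was at 169.7 and 207 CPM in Ifng-gated cells and at 54.4 and 134 CPM in Ifng-negative cells, which did not overlap. The log2 fold change was 0.91 (SE 0.19, adjusted p = 0.0125 by edgeR), and 1.59 and 0.62 within single replicates. The arms came in part from different clusters: the ILC2-like cluster, low in Lgals3, gave 17.2% and 13.8% of the Ifng-negative cells, and in replicate 2 T cell cluster 4 gave 45.2% of Ifng-gated and 14.3% of Ifng-negative cells. Without the ILC2-like cells, an alternative added after the values were seen, the log2 difference of Lgals3 was 0.72 (SE 0.18, adjusted p = 0.00695 by edgeR). Lgals1 was at 593 and 303 CPM against 305 and 235 CPM. Its groups overlapped slightly across replicates, while it was higher within each, at a log2 difference of 0.61 (SE 0.15, adjusted p = 0.0354 by edgeR). Anxa2 was at 129 and 89.3 CPM against 45.6 and 61.9 CPM, with a log2 fold change of 0.82 (SE 0.22), and missed the threshold (adjusted p = 0.0609 by edgeR; 0.198 without the ILC2-like cells). The part of the cluster makeup in these differences was not tested further.

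The remaining genes were not called. Vim was at 751 and 745 CPM against 467 and 637 CPM (adjusted p = 0.242 by edgeR). S100a6 was at 244 and 90 CPM against 104 and 99.4 CPM, and S100a4 at 40.7 and 14.8 CPM against 22.8 and 23.3 CPM, both in opposite order in the replicates. S100a10 differed by -0.04 on the log2 scale. None of the 9 genes was called by DESeq2, without the replicate block, or at the finer clustering, where Lgals3 and Lgals1 kept positive fold changes. Of 23 related genes tested 0 were called by edgeR, with 7 at an unadjusted p under 0.05 and 0 by DESeq2. The macrophage or monocyte genes summed to 40.7 and 40.1 CPM in Ifng-gated cells and 36.8 and 30.9 CPM in Ifng-negative cells, and the ILC1 or natural killer cell genes to 5177 and 3002 CPM against 2061 and 3845 CPM. Their part in the result was not tested.

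**Figure D5:**
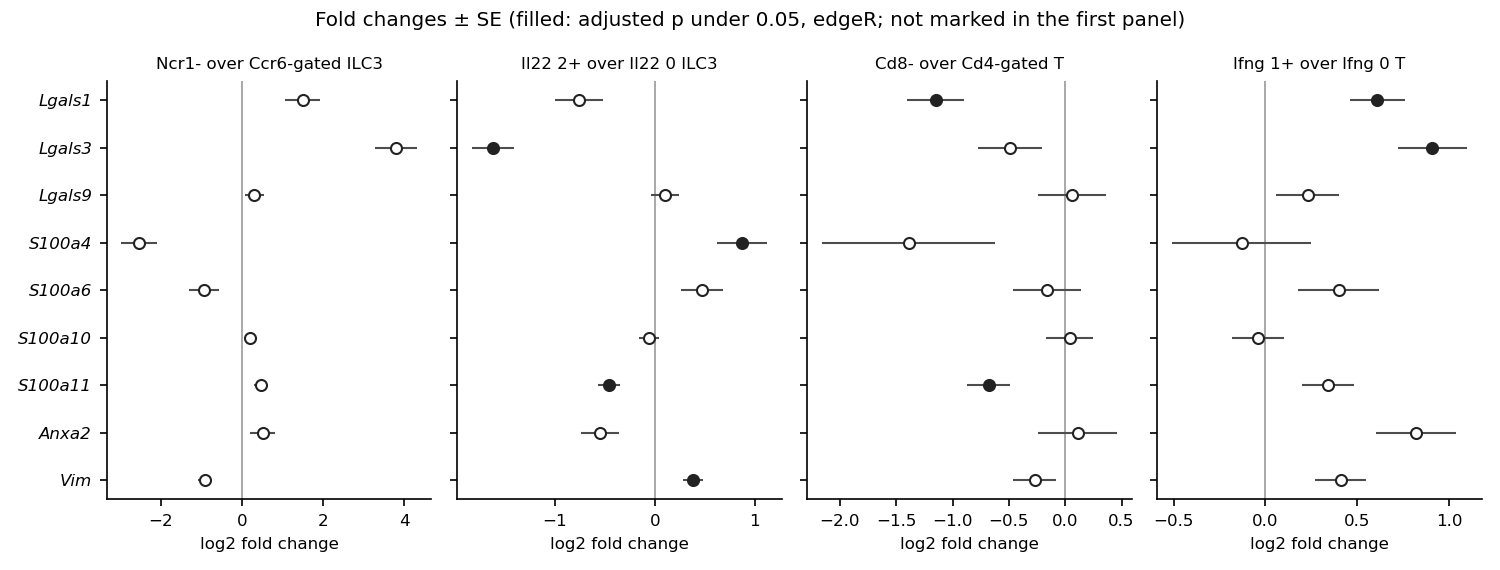
Log2 fold change of each gene with its SE (bars) in 4 comparisons of gated cells. Filled points passed an adjusted p under 0.05 in edgeR and open points did not; the first panel is a description and is not marked. Lgals3 lies at 3.79, -1.62, -0.49 and 0.91 from left to right.

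Plasma cells secrete antibody, and their dividing precursors are plasmablasts. Plasma cell-like cells with at least 2 UMIs of 5 proliferation genes were compared with cells that had none. Anxa2 was at 127 and 171 CPM in cycling and 16.9 and 5.71 CPM in non-cycling cells, and Vim at 329.9 and 1121 against 55 and 108 CPM, without overlap. The fit called Anxa2 and Vim higher in the cycling cells, with log2 fold changes of 2.36 (SE 0.46, adjusted p = 0.0315 by edgeR) and 1.94 (SE 0.35, adjusted p = 0.0246 by edgeR). These were 2 of 8 genes tested, where 4.1% of 4484 genes were called (2.77% higher and 1.34% lower). The median log2 fold change was 0.74 over those 8 genes and 0.01 over all genes tested. In replicate 2 the cycling gate held few plasma cells, as given below, so these calls do not test cycling plasma cells. S100a4 did not pass the filter on low counts. Of 16 related genes tested 0 were called by edgeR, with 3 at an unadjusted p under 0.05 and 0 by DESeq2.

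In replicate 2, however, the cycling gate did not hold plasma cells in the main. Its 31 cells had Cd3e at 603 CPM and Igkc at 19257 CPM, against 12.4 and 161992 CPM in replicate 1, and only 3 of them had at least 5% of UMIs from immunoglobulin genes. The comparison was therefore repeated on cells above that share, a limit set after the data were seen, which gives values in replicate 1 (132 cycling and 179 non-cycling cells) and no test. There Anxa2 was at 110.3 CPM in cycling and 16.9 CPM in non-cycling cells, 6.53-fold higher with a counting interval of 4.33 to 10.2. Vim was at 253 and 55 CPM, 4.59-fold higher (3.63 to 5.86). Lgals1 was at 423 and 161 CPM, 2.63-fold higher (2.27 to 3.06), while Lgals9 was at 16.7 and 16.3 CPM.

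Immunoglobulin genes took 33.1% of the UMIs in these cycling cells and 57.8% in the non-cycling cells. Over the UMIs outside immunoglobulin genes, Anxa2 was at 165 against 40 CPM, Vim at 378 against 130.4 CPM and Lgals1 at 633 against 381 CPM. S100a11 turned from higher to lower, with 111 against 88.2 CPM before and 166 against 209 CPM after. S100a10 was at 212 against 170.5 CPM on this scale. Replicate 2 held 27 non-cycling cells above the same share, with Anxa2 at 0 UMIs and Vim at 89.8 CPM.

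For each gene, the other genes with the most similar pattern were ranked by Pearson correlation of log2(CPM + 10) over the 12 class sums (6 classes in 2 replicates), among 3308 genes with a mean of at least 50 CPM. The sums share libraries and depth, and the values are a description. Lgals3 was closest to Cd86, a costimulatory ligand (0.978), Itgax, an integrin of myeloid cells (0.962), and Vdac2. S100a6 was closest to Sept7 (0.965), Add3 and Cyp1b1, and S100a10 to Adgrl1 (0.940), S100a13 (0.938) and F2r. Vim was closest to Ifitm2 (0.915), Cyb5r3 and Dpysl2, and S100a11 to Dpysl2 (0.945), Plac8 and Ifitm2. S100a4 was closest to Trpc4ap and Tpr, Anxa2 to Psmd7, Dstn and Il6st, and Lgals9 to Lpp, Mcrip1 and Ppm1a. Lgals1 had the weakest likeness, with Mt2 and Selenow at 0.790 and Clec2d at 0.787. Among the 9 genes themselves, S100a6 and Anxa2 were closest (0.83), followed by S100a11 and Vim (0.80), while Anxa2 and its partner S100a10 were at -0.15 and Lgals3 and S100a10 at -0.61.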

How the data were processed

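Small-intestinal ILC3s were profiled on the BD Rhapsody platform, and the deposited tables hold UMI counts per cell and gene. Per the file headers the authors made these counts with the BD WTA Multiplex Rhapsody pipeline 1.8 on GRCm38 with GENCODE vM19. Each deposited tag-call table names the sample tag of a cell, a label rather than a measured value (unit: other), and tags 4 and 2 mark the cells used. HISAT2 2.0.5, Bowtie2, GRCm38.p6 and mm10 appear in the submitters' processing notes with no role given. Both libraries of a replicate share a table and tag, so n = 2.

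From the counts, cells under 300 genes or over 25% mitochondrial UMIs were dropped. Scrublet removed 39 and 6 doublets; at 0.143% of cells it has not worked in replicate 2. Cells were clustered in scanpy 1.11.5 (2000 variable genes without the 9 genes, 30 components, 15 neighbours, Leiden resolution 0.8 by leidenalg 0.10.2), and clusters were named from marker lists. UMIs were summed per class or gate and replicate and given as CPM with exact Poisson 95% intervals, which cover counting error only. A floor is 3 counts.

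Gated sums were tested with edgeR 4.0.16 (R 4.3.3, limma 3.58.1; TMM, filterByExpr, quasi-likelihood test, Benjamini-Hochberg adjustment over all genes tested), with replicate as a block and a threshold of 0.05. The replicate number marks the capture and tag that the sums of a replicate share; correlations of same-replicate deviations were 0.28, 0.57, 0.19, 0.57 and 0.47 in the order of the comparisons. DESeq2 1.42.0, other size factors, no low-count filter, no block, thinning to 1000 UMIs per cell, stricter cell filters, resolution 1.2 and other gates were tried. The spread of a gene had 2, 2, 2, 1 and 2 residual degrees of freedom in the order of the comparisons. The spread borrowed from all genes had 17, 19.3, 88.4, 19.8 and 6.18. The fit was first checked on simulated counts in which 200 genes had been changed.

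The 9 genes and all lists were chosen with earlier results of these data known. Named genes are the 9, those called in the related lists (at most 3 each way per list) and the 3 nearest in pattern, of which 1 is not reported here. Genes outside the 21027 shared by both tables held 0.0343% and 0.0105% of UMIs and were left out.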

Additional observations from a re-analysis of the deposited data

How the results depend on the processing

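Of 503 fold changes under the alternatives, 417 were labelled the same, 41 lost and 8 gained a call, 17 untested ones moved and 20 reversed. In tested fits, the same means the same direction and side of the threshold. Untested fits on 1 replicate were labelled the same when they differed from the main value by less than their SD. A change of sign in them was counted as reversed only for a called gene. Of 333 levels, 27 moved by more than the SD. The 333 include levels of 1 replicate alone, which with n = 2 cannot move by this rule. Between Ncr1-gated and Ccr6-gated cells 4 genes were called, 1 after thinning to 1000 UMIs and 2 without cluster 1 (leaving it out was decided after seeing the data). In the Il22 comparison 4 became 1 under DESeq2, without the replicate block, after thinning and without cells with a CD3 or T cell receptor UMI, and 0 without cluster 1 (edgeR; 2 unadjusted). In the Cd8 comparison 2 became 0 under DESeq2 and without the replicate block (2 unadjusted each), and 0 after thinning and with at least 1 CD3 UMI (1 unadjusted each, edgeR). In the Ifng comparison 2 became 0 under DESeq2 (4 unadjusted), without the block (3) and at resolution 1.2 (5, edgeR). In the plasma comparison 2 became 0 without the block (2 unadjusted) and after thinning (1, edgeR). The cause was not tested. Fits on 1 replicate gave values with no test.

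No gene counted as reversed had been called in that comparison. For genes not called, changes of sign in fits on 1 replicate are not listed. For S100a10 the reversed values were -0.0048 (Ncr1, thinned), -0.14 (Ncr1, no CD3 UMI), 0.03 (Il22, no CD3 UMI), 0.02 and 0.01 (Ifng, thinned and at least 1 CD3 UMI), and in the Cd8 comparison -0.07 (DESeq2), -0.04 (no low-count filter), -0.02 (no block) and -0.07 (at least 1 CD3 UMI). For Lgals9 they were -0.09 (Il22, thinned) and, for Cd8, -0.23 (DESeq2), -0.02 (no filter) and -0.25 (no block). Anxa2 gave 0.18 (Il22, no CD3 UMI) and, for Cd8, -0.50 (thinned) and -0.04 (no ILC2-like cells), S100a4 0.03, 0.03 and 0.11 (Ifng; DESeq2, no block, resolution 1.2), and S100a11 -0.13 (plasma, thinned). Without the low-count filter the median of all genes in the Cd8 comparison was -0.24. The stricter cell filter could not be fitted for Cd8 (under 10 cells in an arm), nor could the ILC3 clusters without natural killer markers or the plasma cells above 5% immunoglobulin.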

Other observations

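In an unnamed cluster of 11 and 120 cells led by Retnlg, Lgals3 was at 195 and 534 CPM and S100a11 at 342 and 608 CPM. S100a8 and S100a9, the calprotectin genes, had 0 UMIs there. They had only 0 and 2 UMIs over all cells, so their absence is not particular to this cluster.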
